A study of Mus musculus with 2 samples.

Results

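The genes described here handle zinc, iron, copper and magnesium: the members of the transporter families Slc11a, Slc30a, Slc31a, Slc39a, Slc40a and Slc41a, with Mt1, Mt2, Tfrc, Fth1, Ftl1, Cybrd1, Heph, Atp7a and Atp7b. They were chosen by gene symbol alone, among table rows annotated to a single symbol, which gave 42 genes with 1 row each of 19645 named genes on the array; 41 are protein-coding and 1 is the pseudogene Slc39a1-ps. Total RNA came from GFP-positive intestinal stem cells sorted from the small intestine of 8-week-old mice. Both groups carry the Lgr5GFP-CreERT2 allele, which reports expression of the stem cell receptor gene Lgr5. The groups are circPan3+/+, which has the circular RNA made from the host gene Pan3, and circPan3-/-, which lacks it. Each was hybridised to 1 Affymetrix Clariom D mouse array, and the sources used here do not say whether a sample was 1 mouse or a pool. They are called wild-type and knockout below. A single array stands for each genotype, so differences have no replicate check, error or p-value and describe these 2 arrays.

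Free metal ions are toxic and their total is fixed by transport, so a cell sets its metal content through importers, exporters and binding proteins. In general, Slc39a proteins bring zinc into the cytosol, from outside or from organelles, and Slc30a proteins take it out. Iron enters most cells bound to transferrin through the transferrin receptor, is stored inside ferritin shells and leaves through ferroportin, the Slc40a1 product. The iron regulatory proteins, encoded by Aco1 and Ireb2, bind stem-loops in the messenger RNAs of the receptor and ferritin when iron is scarce, which stabilises the first and blocks translation of the second. The intestinal epithelium takes up dietary metal at its villi, while dividing crypt cells draw much of their iron from the blood.

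Values are RMA signals on a log2 scale and differences are circPan3-/- minus circPan3+/+. A gene was called apart at 2-fold, a difference of 1 on that scale, if its mean over both arrays reached the median of all rows (2.53). The 95th percentile of negative control rows, 5.06 on the circPan3+/+ and 5.56 on the circPan3-/- array, served as a control limit. Where the dimmer value lay under its limit the fold is a bound, computed from that limit, and where both did no fold is given. Such a bound holds for the deposited signals only. It does not take out the offset between the 2 limits, which makes it larger for genes higher on the circPan3-/- array. Named genes as a whole were shifted towards the circPan3-/- array by a median of 0.36, so each difference is best read against that value. Values shared exactly with another row made up 69.1% of the wild-type column and 4.20% of the knockout column. The wild-type value was shared in this way for 25 of the 42 members and the knockout value for 0, so the resolution of the 2 columns differs, and whether they were processed alike is not known. The label of the cells was only partly borne out by marker levels. Lgr5 had 10.91 in wild-type and 7.02 in knockout cells, whereas the epithelial gene Epcam had 8.51 and 9.65. The crypt base stem cell markers went both ways: Olfm4 was lower by 1.25, while Smoc2 was higher by 1.94 and Ascl2 by 0.89, the latter pair between values under the control limits.

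Iron genes held the clearest differences, with the transferrin receptor gene higher and both ferritin genes lower on the circPan3-/- array. Of the 42 members, 39 passed the filter on low levels; Slc39a2, Slc39a12 and Slc30a8 did not. Of the 39, 3 were at least 2-fold higher (Slc39a8, Tfrc and Slc30a6) and 4 at least 2-fold lower (Slc11a1, Fth1, Slc31a2 and Ftl1), and 32 were neither. Among all 14588 named genes past the filter, 9.69% were called higher and 2.74% lower. The 39 members had a median difference of 0.36, equal to that of all named genes, and quartiles of -0.02 and 0.70, against 0.06 and 0.66 in all named genes. The members as a whole therefore lay on the general shift. Both values were under the control limits in 24 of the 39 members (61.5%), against 69.8% of named genes. When values under a limit gave only bounds, 1 member was higher (Tfrc) and 2 were lower (Fth1 and Ftl1), with 3.69% and 0.535% of named genes called by the same rule. Relative to the shift of named genes 2 members were higher (Slc39a8 and Tfrc; 3.84% of named genes) and the same 4 lower (4.96%). Relative to a lowess curve of the difference on signal level 0 were higher (3.7%) and those 4 were lower (4.65%).

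**Figure D1:**
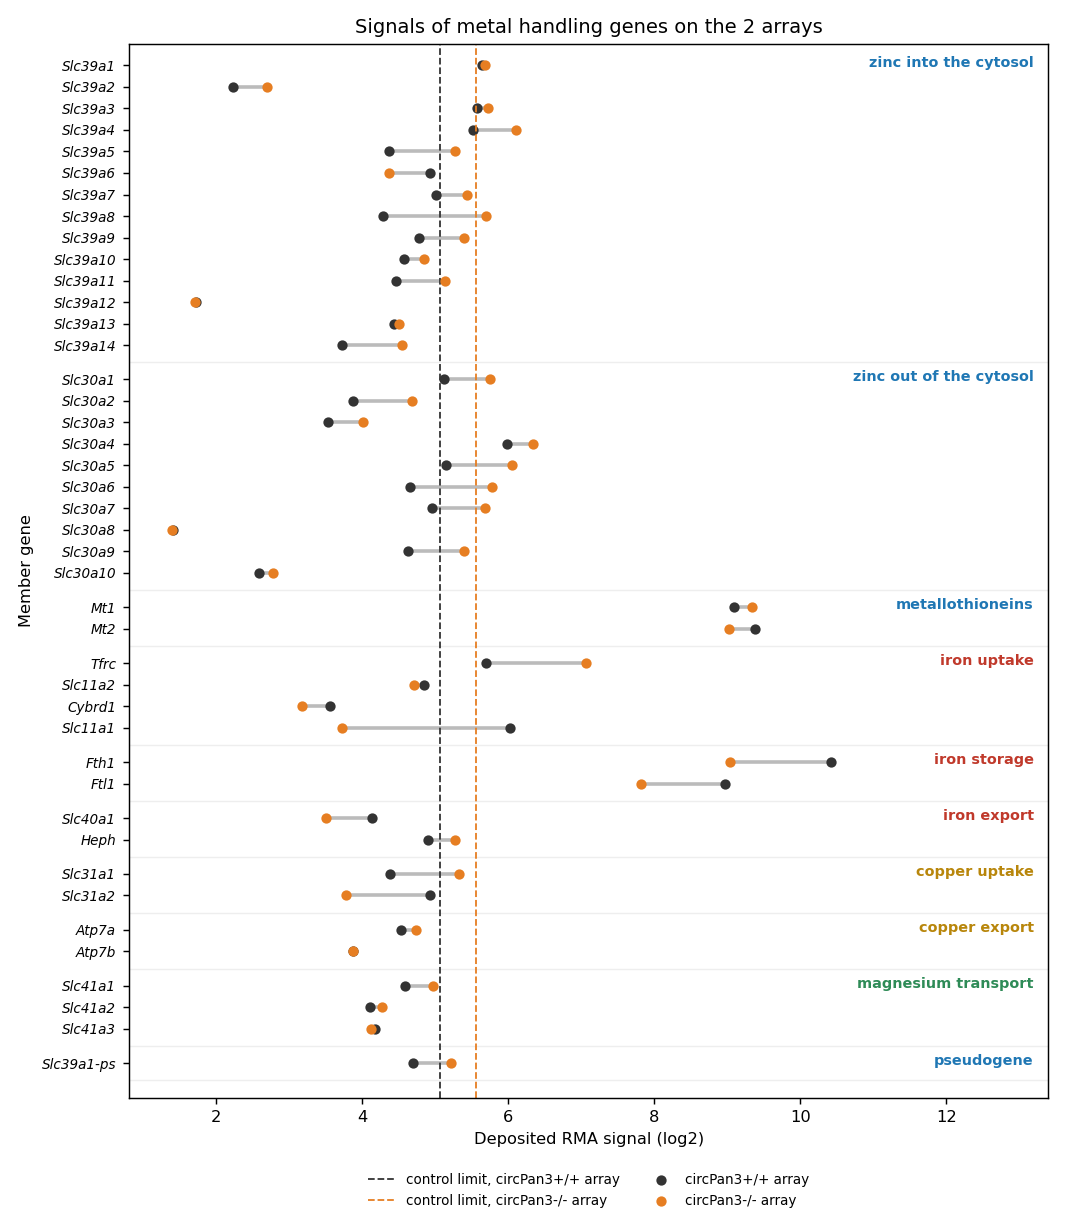
Deposited RMA signal (log2, horizontal axis) of the 42 members, grouped by metal and direction of transport, with a black point for the circPan3+/+ array and an orange point for the circPan3-/- array. Dashed lines mark the control limits of 5.06 and 5.56. Tfrc, the ferritin genes and the metallothionein genes lie above the limits on both arrays, while 24 members past the filter lie under them on both.

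The signal of Tfrc, the transferrin receptor gene, was 5.69 in wild-type and 7.06 in knockout cells. Both values were above the control limits, and the difference of 1.37 corresponds to 2.58-fold. Of the named genes, 548 of 14588 had a larger positive difference. Relative to the shift of named genes Tfrc was 1.01 higher, and after quantile normalization 1.09. Relative to the lowess curve it was 0.87 higher, and set against the epithelium markers 0.45, both under the 2-fold mark. The epithelium markers themselves had a median difference of 0.92.

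Fth1, the gene of the ferritin heavy chain that oxidises iron for storage, gave 10.42 in wild-type and 9.04 in knockout cells. It was 2.60-fold lower as deposited, a difference of -1.38, and -1.74 relative to the shift; 219 named genes lay further down. Ftl1, the gene of the light chain that helps to mineralise the iron core, had 8.96 and 7.82, a difference of -1.14 or 2.21-fold, with 324 named genes further down. Both ferritin genes stood above the control limits on both arrays and were lower by more than 2-fold under each of the 5 scalings compared. Centring on named genes or epithelium markers and the lowess curve all subtract a positive amount here. A lower call could therefore not be lost in those settings, and passing them adds no support. Quantile normalization also moved both genes further down, to -1.45 for Fth1 and -1.32 for Ftl1. Ferritin genes have many processed copies in the genome, and the Ftl1 row is annotated with 3 gene identifiers under its 1 symbol, so its signal may be shared with copies. The pseudogene Fth-ps2 had 3.82 and 4.99, which is 1.17 higher. Both values were under the limits, so whether this copy followed Fth1 cannot be told.

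A shift common to all genes cancels by construction in the contrast between receptor and ferritin. Tfrc was called higher and both ferritin genes lower, so a wide gap followed from the calls. It is given as a size only and adds no support to them. The difference of Tfrc exceeded that of Fth1 by 2.75 and that of Ftl1 by 2.51 on the log2 scale. After quantile normalization these gaps were 2.53 and 2.41, and relative to the lowess curve 2.80 and 2.55. Such a gap shows unequal differences, not which gene of the pair accounts for it.

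The ferritin pair is the clearest set of members lower together, so the 250 bases upstream of their RefSeq starts (GRCm38.p6) are shown beside those of the metallothionein genes, which are bright on both arrays and are described further on. Ferritin and metallothionein promoters are textbook sites of stress and metal control. The windows are chr19:9982396-9982645 on the plus strand for Fth1, which has another annotated start further upstream that is not shown, and chr7:45459887-45460136 on the minus strand for Ftl1. Those of the metallothionein genes are chr8:94178839-94179088 for Mt1 and chr8:94172368-94172617 for Mt2, both on the plus strand. Capitals mark matches, on either strand, to the metal response element core (TGCACNC or TGCGCNC) or to the antioxidant response element core (TGACNNNGC).
Fth1: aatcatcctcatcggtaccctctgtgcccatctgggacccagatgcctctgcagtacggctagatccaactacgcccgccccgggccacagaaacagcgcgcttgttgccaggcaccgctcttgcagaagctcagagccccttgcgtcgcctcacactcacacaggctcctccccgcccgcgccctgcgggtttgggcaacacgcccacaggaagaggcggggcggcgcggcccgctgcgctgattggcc
Ftl1: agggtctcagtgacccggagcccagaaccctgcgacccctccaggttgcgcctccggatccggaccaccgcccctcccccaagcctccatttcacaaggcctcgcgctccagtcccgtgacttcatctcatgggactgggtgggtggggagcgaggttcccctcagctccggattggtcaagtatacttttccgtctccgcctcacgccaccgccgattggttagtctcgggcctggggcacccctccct
Mt1: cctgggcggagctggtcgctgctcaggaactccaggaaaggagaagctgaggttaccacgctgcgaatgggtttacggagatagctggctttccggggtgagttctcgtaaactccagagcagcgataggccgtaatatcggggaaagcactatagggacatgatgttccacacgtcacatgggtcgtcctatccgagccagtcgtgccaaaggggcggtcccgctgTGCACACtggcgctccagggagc
Mt2: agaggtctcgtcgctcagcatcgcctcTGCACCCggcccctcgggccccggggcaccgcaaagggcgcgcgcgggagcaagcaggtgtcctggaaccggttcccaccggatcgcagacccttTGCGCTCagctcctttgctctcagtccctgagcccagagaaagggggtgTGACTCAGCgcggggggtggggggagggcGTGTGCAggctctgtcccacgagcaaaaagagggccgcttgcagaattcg
Neither ferritin window held a match to these letters, which says nothing about sites elsewhere. The Mt1 window held 1 metal response match, TGCACAC at -23 from the start. The Mt2 window held 3, at -223, -128 and -50, and 1 antioxidant match, TGACTCAGC at -79. These metallothionein counts cover the windows alone and not sites elsewhere, those downstream of the annotated starts included. Promoter entries were found for 34 of the 42 members, with 41 windows in all because some genes have several starts. A metal response match stood in 20 of these 41 windows (48.8%) and in 21.4% of all 32851 windows of the same length. For the antioxidant core the shares were 19.5% and 10.2%. Such short words also occur by base composition, and a match is not a shown site.

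Slc11a1, which encodes a metal transporter of phagosome membranes in macrophages and neutrophils, was called lower as deposited. Its signal was 6.03 in wild-type and 3.73 in knockout cells, a difference of -2.30. The circPan3-/- value lay under the control limit, so the fold is bounded at no less than 1.39. Myeloid marker genes moved the same way: 11 of 14 were at least 2-fold lower and 0 higher, with a median difference of -1.78. Their summed linear signal was 2506 on the circPan3+/+ and 1739 on the circPan3-/- array, and 1011 against 280 without Lyz2, which Paneth cells can also express. Under the control limit lay 1 of the 14 in wild-type and 12 in knockout cells. Of all named genes, 2.74% were called lower as deposited and 0.535% with bounds. With bounds 4 of the 14 myeloid markers were at least 2-fold lower. The part of these markers in the values of Slc11a1, Fth1 and Ftl1 was not tested, and in such bulk RNA fewer cells of a type and less RNA per cell cannot be told apart.

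The genes of dietary iron absorption were dim and none was 2-fold apart. Slc11a2, the proton-coupled importer of ferrous iron, had 4.84 in wild-type and 4.71 in knockout cells, a difference of -0.13. Cybrd1, a ferric reductase of the duodenal brush border, had 3.56 and 3.18, and Slc40a1, the iron exporter ferroportin, had 4.13 and 3.50. The Slc40a1 difference was -0.63 as deposited and -0.99 relative to the shift, close to 2-fold. Heph, the ferroxidase that works beside ferroportin, had 4.90 and 5.27, a difference of 0.38 that lies on the shift. All 4 had both values under the control limits. Of the 8 iron members, 2 had a difference above 0 and 6 below, with a median of -0.51, against 11419 above and 3169 below among the named genes. Enterocyte markers had a median difference of -0.89, with 5 of 10 at least 2-fold lower, 0 higher and summed linear signals of 3895 and 2348. Under the limit were 1 of the 10 on the wild-type and 2 on the knockout array. Their part in the values of these absorption genes was not tested.

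**Figure D2:**
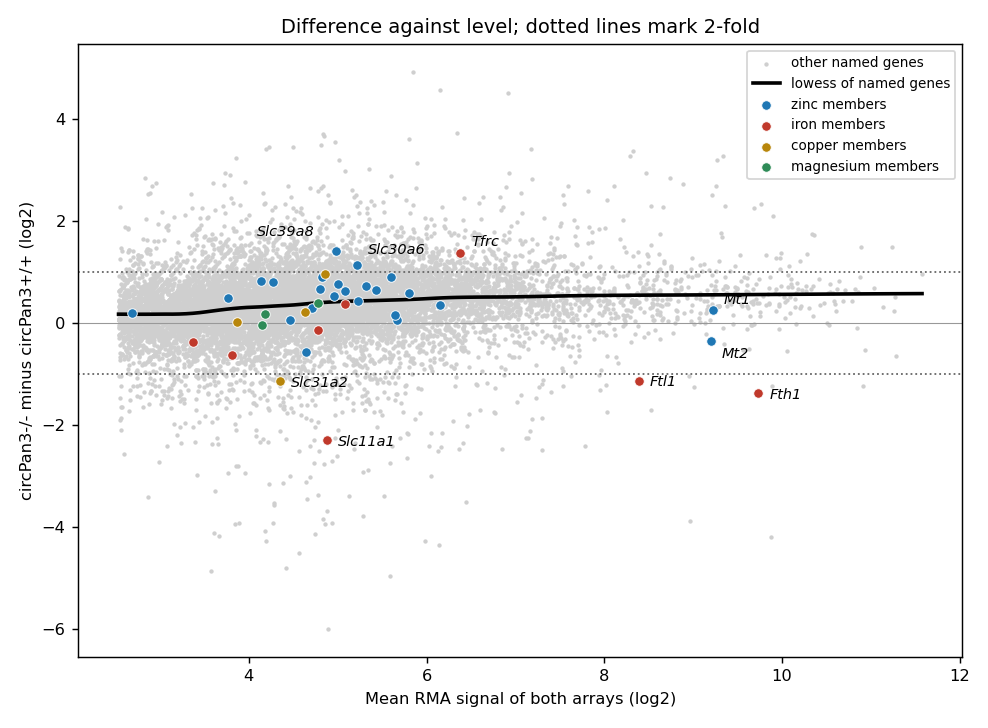
Difference between the arrays (log2, circPan3-/- minus circPan3+/+, vertical axis) against the mean signal of both (log2, horizontal axis), with 14588 named genes in grey, the lowess curve in black and the 39 members past the filter coloured by metal. Dotted lines mark 2-fold in each direction. Fth1 and Ftl1 lie below the dotted line at the bright end, where few named genes do, and Tfrc above it.

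Of the 23 zinc members past the filter, 2 were called higher and 0 lower, beside 9.69% and 2.74% of all named genes, so the share called was near the background. Slc39a8, which imports zinc and manganese, gave 4.28 in wild-type and 5.69 in knockout cells. As deposited it was higher by 1.41. Its circPan3+/+ value was under the control limit and was held by 163 rows of the table, so the fold of deposited signals is bounded at no less than 1.55. The circPan3-/- value lay just above the limit of its own array, 5.56. Relative to the lowess curve Slc39a8 was just short of 2-fold.

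The other zinc importers were less far apart. Slc39a4, the importer of dietary zinc at the apical membrane, had 5.51 and 6.10, higher by 0.59 with both above the limits. Slc39a5, a basolateral zinc importer, had 4.37 and 5.27, and Slc39a14, which carries zinc, manganese and iron, had 3.73 and 4.55; these values were under the limits. The surface importers Slc39a1 and Slc39a3 were above the limits on both arrays and nearly level, with 5.64 and 5.69 for Slc39a1 and 5.57 and 5.72 for Slc39a3. Both of these lie below the shift. Slc39a6 was the single importer lower on the circPan3-/- array among those past the filter, with 4.93 and 4.36, a difference of -0.57 and of -0.92 relative to the shift, between values under the limits. Slc39a7, which releases zinc from the endoplasmic reticulum, had 5.01 and 5.43, Slc39a9 of the Golgi had 4.77 and 5.39, and Slc39a10 had 4.56 and 4.85. Slc39a11 had 4.46 and 5.13, and Slc39a13, of the Golgi and vesicles, 4.44 and 4.50. The 12 importers past the filter had a median difference of 0.50, with 7 above and 5 below the shift. Slc39a2 and Slc39a12 failed the filter, with 2.23 and 2.70 for Slc39a2 and 1.72 and 1.71 for Slc39a12. The pseudogene Slc39a1-ps had 4.70 and 5.22, both under the limits.

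The zinc exporters had a higher median difference than the importers as deposited, an order that turned in 1 alternative given here. Exporters are counted by gene family, so Slc30a10, which exports manganese rather than zinc, is among them with a difference of 0.20. All 9 exporters past the filter had a difference above 0, and 8 of the 9 lay above the shift, counting Slc30a4 that sits on it, with a range from 0.20 to 1.13. Of 14588 named genes, 11419 had a difference above 0 and 7294 lay above the shift. Both values were under the control limits in 4 of the 9. The median of the 9 exporters was 0.73 as deposited, 0.37 relative to the shift, 0.30 relative to the lowess curve and 0.39 after quantile normalization. It turned to -0.19 when differences were set against those of 6 epithelial marker genes. The median of exporters exceeded that of importers by 0.23 as deposited and by 0.22 to 0.24 after centring, lowess or quantile normalization. The order turned when members with tied values were left out, at 0.56 over 4 exporters and 0.59 over 5 importers.

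Slc30a5, Slc30a6 and Slc30a7 supply zinc to enzymes of the secretory pathway. Slc30a6 was the single exporter past 2-fold, with 4.65 in wild-type and 5.78 in knockout cells, a difference of 1.13 bounded at no less than 1.65-fold, and it was under 2-fold relative to the shift, at 0.77. Slc30a5, the partner of Slc30a6 in a heterodimer, had 5.15 and 6.05, a difference of 0.90 or 1.87-fold with both values above the limits. Slc30a7 had 4.95 and 5.68, a difference of 0.73, bounded at no less than 1.54-fold. Slc30a1, the main exporter of the cell surface, had 5.12 and 5.75 (1.55-fold, both above the limits).

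Among the vesicular exporters, Slc30a4 had 5.98 and 6.33, exactly on the shift at 0.36. Slc30a2, which loads zinc into secretory vesicles, had 3.87 and 4.68, and Slc30a3, known from synaptic vesicles, 3.52 and 4.01. Slc30a9 of the mitochondria had 4.62 and 5.39. Slc30a10, which exports manganese rather than zinc, had 2.58 and 2.78, and Slc30a8 of insulin granules, at 1.41 and 1.39, failed the filter. These 5 genes other than Slc30a4 were under the limits on both arrays. Markers of secretory cells were higher on the same array: 7 of 7 measured Paneth cell markers and 6 of 6 goblet cell markers were at least 2-fold higher. Their summed linear signals were 3022 against 11035 for Paneth cells and 1085 against 4753 for goblet cells. Of the Paneth markers 1 was under the limit in circPan3+/+ cells and 0 in circPan3-/- cells, and 0 of the goblet markers were under it on either array. The part of these markers in the zinc exporter values was not tested.

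**Figure D3:**
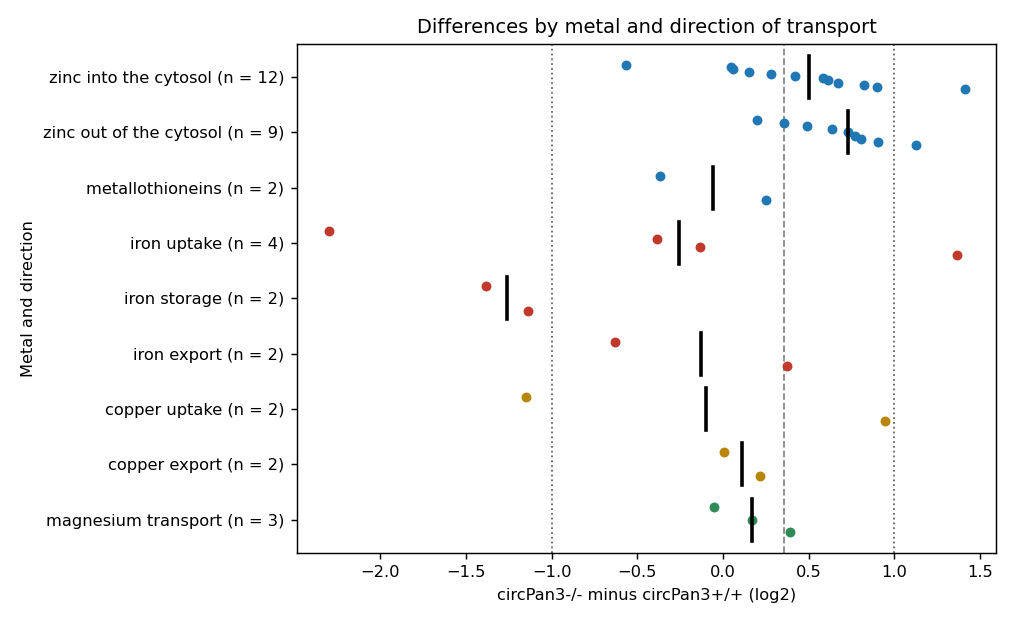
Difference between the arrays (log2, circPan3-/- minus circPan3+/+, horizontal axis) for the members past the filter in each class of metal and direction, with 1 point per gene and a black bar at the median. The dashed line marks the shift of named genes, 0.36, and the dotted lines 2-fold. Zinc exporters, counted by family with the manganese exporter Slc30a10 at the low end, lie from 0.20 to 1.13. Both ferritin genes lie left of the lower dotted line.

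The metallothionein genes, whose small cysteine-rich products bind zinc and copper and whose transcription rises with zinc, cadmium and glucocorticoids, were strongly detected and little apart. Mt1 gave 9.09 in wild-type and 9.35 in knockout cells, 1.19-fold apart (difference 0.25). Mt2, its neighbour on the chromosome, had 9.39 and 9.02, a difference of -0.37 or 1.29-fold. Both were above the limits and neither was called apart. Both lay below the shift, by 0.10 for Mt1 and 0.72 for Mt2, unlike 8 of the 9 zinc exporters. Mtf1, which encodes the zinc-sensing activator of these promoters, had 4.82 and 4.93, both under the limits.

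The copper importers differed in opposite directions as deposited, but between values not above the control limits. Slc31a2, which encodes a copper transporter of endosomes and lysosomes, had 4.93 in wild-type and 3.78 in knockout cells, a difference of -1.15 that was past 2-fold under each of the 5 scalings compared. As for ferritin, centring and the lowess curve could only move that difference further down, and quantile normalization moved it to -1.47. Slc31a1, the high-affinity copper importer of the cell surface, had 4.38 and 5.33, a difference of 0.95. All 4 values lay under the control limits, so no fold is given for either gene. The copper-exporting ATPase genes were close to level, with 4.52 and 4.74 for Atp7a and 3.87 on both arrays for Atp7b, again under the limits. The circPan3+/+ value of Atp7b equals that of Slc30a2 and was held by 206 rows. Atox1, which hands copper to these ATPases, had 5.64 and 5.31.

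None of the 3 magnesium transporters of the Slc41a family was apart. Slc41a1, which exports magnesium in exchange for sodium, had 4.59 in wild-type and 4.97 in knockout cells. Slc41a2 had 4.10 and 4.27, and Slc41a3, placed in mitochondria, 4.18 and 4.12. Their differences ran from -0.05 to 0.39 and all values were under the limits.

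**Figure D4:**
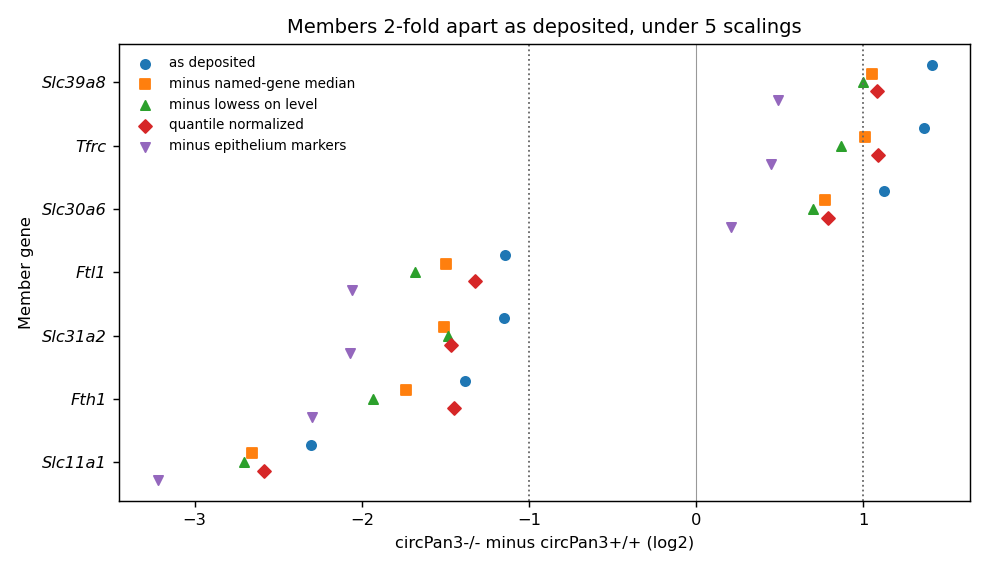
Difference between the arrays (log2, circPan3-/- minus circPan3+/+, horizontal axis) of the 7 members at least 2-fold apart as deposited, under 5 scalings shown by marker shape. Dotted lines mark 2-fold. Slc11a1, Fth1, Slc31a2 and Ftl1 stay left of the lower line in all 5, whereas Slc39a8 and Tfrc are past the upper line in 3 of 5 and Slc30a6 in 1 of 5. Centring and the lowess curve subtract positive amounts, so they can only move points to the left. Quantile normalization moved each of these 7 to the left as well.

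A list of 58 other metal genes was read beside the members, and of these 54 had a row with a single symbol and 51 passed the filter. At least 2-fold higher were 6 and lower were 2, shares near the 9.69% and 2.74% of all named genes, and the median of 0.36 again equalled theirs. Among 26 other iron genes past the filter, 2 were higher, 2 lower and 22 neither. Aco1, which encodes an iron regulatory protein, had a knockout signal of 6.20, bounded at no less than 2.20-fold above the wild-type limit, and stood 0.84 above the shift of named genes. Ireb2, which encodes the other iron regulatory protein, had 4.93 and 5.50. Steap2, a metalloreductase gene, was higher by 1.11 between values under the limits.

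Lower on the circPan3-/- array were the haem oxygenase gene Hmox1, whose product frees iron from haem, and the transferrin gene Trf. Hmox1 had 8.32 and 3.97, a difference of -4.35 bounded at no less than 6.79-fold, with 5 named genes further down. Trf had 6.02 and 4.60, a difference of -1.42 bounded at no less than 1.38-fold. The iron hormone gene Hamp had 4.35 and 4.27. Macrophages are known to express Hmox1 strongly, and the myeloid markers given above were lower on the same array; their part in it was not tested. Erythroid markers, read because red cell precursors are rich in Tfrc, were measured for 3 of 8 genes. All 3 were under the limits on both arrays, with a median difference of -0.66 and summed linear signals of 46.6 and 26.9.

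Of 14 magnesium genes outside the Slc41a family past the filter, 3 were at least 2-fold higher, 11 neither and 0 lower, beside 9.69% and 2.74% of named genes, with a median of 0.68. Cnnm4, which encodes a basolateral magnesium exporter of the gut, had 4.85 in wild-type and 6.21 in knockout cells, a difference of 1.37 bounded at no less than 2.22-fold. Magt1, whose product takes part in magnesium uptake and protein glycosylation, had 5.73 and 6.78, both above the limits, a difference of 1.05 or 2.07-fold. Nipal2 was higher by 1.76 between values under the limits. Relative to the shift 2 of the 3 remained past 2-fold, Cnnm4 at 1.01 and Nipal2 at 1.40, with Magt1 at 0.69. Relative to the lowess curve 1 did, Nipal2 at 1.45, with Cnnm4 at 0.93 and Magt1 at 0.56. Trpm6, the channel gene of intestinal magnesium absorption, had 3.07 and 2.93. Of 7 other copper genes past the filter, Sco1, a gene of mitochondrial copper delivery, was the single one called, higher by 1.66 between values under the limits. Of 4 other zinc genes 0 were called.

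**Figure D5:**
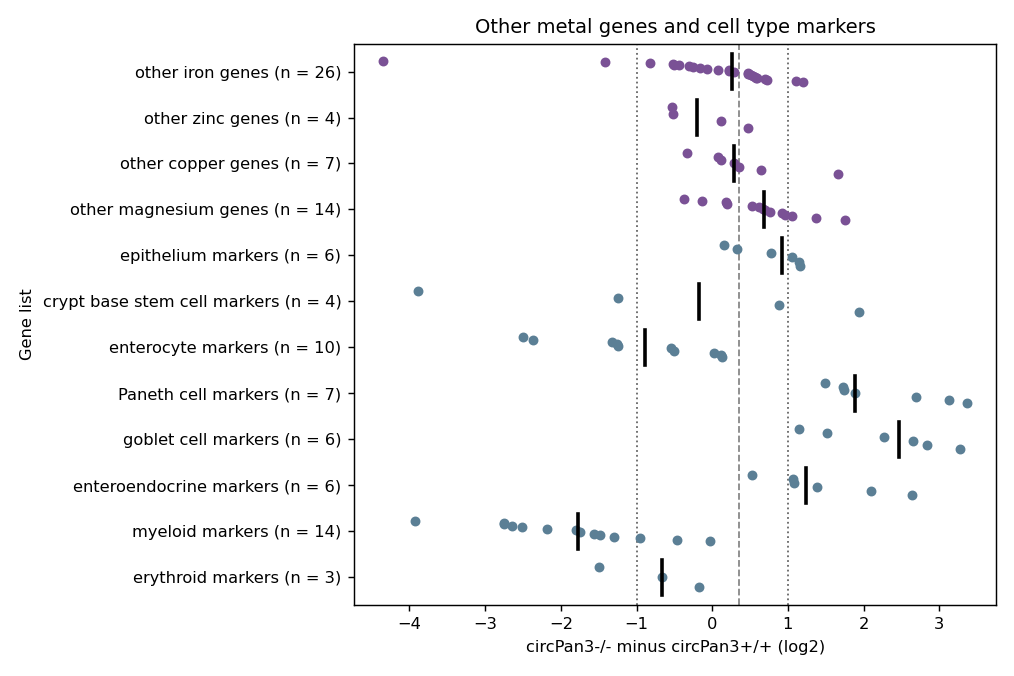
Difference between the arrays (log2, circPan3-/- minus circPan3+/+, horizontal axis) of other metal genes (purple) and of cell type markers (blue-grey) past the filter, with 1 point per gene and a black bar at each median. The dashed line marks the shift of named genes and the dotted lines 2-fold. Myeloid and enterocyte markers have medians of -1.78 and -0.89, Paneth and goblet cell markers of 1.89 and 2.46.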

How the data were processed

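Total RNA of sorted intestinal stem cells was measured on 2 arrays, 1 per genotype. The authors ran Affymetrix Power Tools with RMA, per the submitters' processing notes, which name no version or build. The deposited values are RMA signals on a log2 scale, from -0.18 to 13.07; the base was taken from that range. RMA leaves background in dim rows, so low values compress differences.

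The 72688 rows were named from the platform annotation, updated through the RefSeq table (GRCm38.p6), and predicted models and noncoding RNA genes were left out, while pseudogenes with a name were kept. The brightest of several rows stood for a gene. Python 3.11.15, pandas 2.3.3 and statsmodels 0.14.6 (lowess, span 0.3) were used. The counting and scaling steps were run on simulated differences as a check of the code. Those differences were far past the threshold and had no trend with level and no tied values, so the check gives no support for the calls. With 1 array per genotype, genes were described by size. The control limit rests on 5222 negative control rows. The number of arrays limits the precision. The members follow a rule on gene symbols that uses no signal value, but members and lists were chosen with earlier results of these data known. All members were named, and of the other metal genes those 2-fold apart plus Mtf1, Aco1, Ireb2, Hamp, Hmox1, Cnnm4, Trpm6 and Atox1; Fth-ps2 was chosen after its values were seen. Enteroendocrine markers, also read, were at least 2-fold higher in 5 of 6 cases (median 1.24). Crypt base stem cell markers had 1 of 4 higher and 2 lower, and the 6 epithelium markers 3 higher.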

Additional observations from a re-analysis of the deposited data

Results flagged for a closer look

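A pair of transcript clusters annotated to several genes, Ftl1 among them, was left out of the members because each names more than 1 gene, yet both carried signals well above the control limits. The first, annotated to 5 genes, had 9.77 in wild-type and 8.26 in knockout cells, a difference of -1.52. The other, annotated to 2 genes, had 9.83 and 8.38, a difference of -1.45. Both lay on the same side as the single-symbol Ftl1 row. They may share probe sequence with it and are no independent reading.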

How the results depend on the processing

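As deposited, 3 members were called higher and 4 lower. The count of higher members was 2 after centring or quantile normalization, 0 after lowess on level, 0 when centred on the epithelium markers (an alternative added after seeing the data), 1 with bounds, 1 with a filter at the negative control limit (12 members left), 1 with values shared with no other row (17 members left) and 14 at 1.5-fold. The count of lower members was 2 with bounds or with the filter at the control limit and 9 when centred on the epithelium markers; in the other settings it was 3 to 5. The medians of all members, zinc importers and zinc exporters were 0.36, 0.50 and 0.73 as deposited. They were 0.0004, 0.15 and 0.37 after centring, -0.0445, 0.0609 and 0.30 after lowess, and 0.0305, 0.17 and 0.39 after quantile normalization. With no filter they were 0.32, 0.44 and 0.68, with a filter at the upper quartile 0.38, 0.50 and 0.77, and with one at the control limit 0.30, 0.15 and 0.68. With unshared values they were 0.38, 0.59 and 0.56, and against the epithelium markers -0.56, -0.42 and -0.19. Averaging rows of a symbol changed nothing, since each member has 1 row. No called member changed sign. The cause of these moves was not tested, apart from the settings' own construction. No paired analysis was possible because there is 1 array per genotype. Values under the control limits, in 24 of 39 members on both arrays, limit what can be told of dim genes.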
